A study of Mus musculus with 90 samples.

Results

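Muscle mesenchymal stromal cells (MmSCs), the fibroblast-like cells that reside between muscle fibres, were measured after brief culture with vehicle and set against the same cell type lysed straight from the sorter. The groups were chosen by their labels: 3 libraries named Unstim (cultured, vehicle) and 3 named WT.SED (fresh, from sedentary mice), 6 of the 90 libraries in the series. All were bulk libraries of polyA RNA from 1000 cells sorted 2 times for PDGFRα and Sca1 and against CD31, CD45 and a dye for dead cells. Vehicle is the control for Yoda1, a small molecule that opens the mechanically gated channel Piezo1, which was given to other libraries and to none of those described here. WT.SED cells came from hindlimb muscles of sedentary mice 8 to 10 weeks old. No genotype is given for Unstim, and for WT.SED and WT_sed only the letters WT in their names. The length of the vehicle culture and the age of the mice behind Unstim were not given in the sources used here. Cultured and fresh libraries belong to separate cohorts, so culture and cohort cannot be told apart within this pair.

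For that reason a second fresh group, WT_sed (3 libraries, sedentary mice of the same age range), served as another reference, and a change is read below where it held against both. Another fresh group (3 libraries, sedentary, genotype labelled PdgfraCre.pos_Piezo1WT, called Pdgfra-Cre SED here) and a second cultured group (3 vehicle libraries of the same genotype label, named 0h and called vehicle 0 h here) were used to place the results. By that label these 2 groups carry a Cre recombinase driven from Pdgfra beside wild-type Piezo1. The labels do not say whether replicates came from separate animals or cultures, so p-values measure the spread between these libraries, which may be technical.

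Stromal cells at rest in muscle carry surface proteins such as Sca1, CD34 and CD55, and make matrix and complement. Cells taken from tissue into a dish can engage several known stress programs: the heat shock response (HSF1 and its chaperone targets), the oxidative stress response (NRF2) and the amino acid and ER stress response (ATF4). Early response factors (FOS, EGR, NR4A), NF-kB, and YAP with SRF, which read cell shape and tension, are further programs known to respond to handling and plating.

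Total counts ran from 4667436 to 8850594 over the 15 libraries used, and mitochondrial genes took 0.373% to 0.718% of them. Pdgfra was between 404 and 949.6 CPM (read counts scaled to library size, with TMM over the 15 libraries) and Ly6a, which encodes Sca1, between 446 and 1375 CPM in all of them, while Ptprc (CD45) did not pass 1.76 CPM. Pecam1 (CD31) read 23.1, 6.40 and 17.6 CPM in vehicle 0 h, 5.16, 7.41 and 6.32 CPM in Unstim and 3.80, 8.69 and 5.46 CPM in WT.SED. It read 1.01, 0.253 and 0.151 CPM in WT_sed and 8.72, 4.00 and 4.03 CPM in Pdgfra-Cre SED. The WT_sed libraries stood apart from the other 12. Their 7 tenocyte markers summed to 25.0 to 82.5 CPM, against 1260 to 2761 CPM in WT.SED, 2048 to 2871 CPM in Unstim, 3444 to 4064 CPM in vehicle 0 h and 390 to 3141 CPM in Pdgfra-Cre SED. WT_sed replicates 1 and 2 held Xist at 322 and 321 CPM and no reads of the Y-linked Ddx3y, whereas the other 13 libraries held Ddx3y at 38.7 CPM or more and Xist at 1.27 CPM or less. Red blood cell genes summed to 2.53, 72.9 and 879.8 CPM in the Pdgfra-Cre SED libraries and to at most 26.25 CPM in any other library. In bulk libraries fewer cells of a type and less RNA per cell cannot be told apart.

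**Figure D1:**
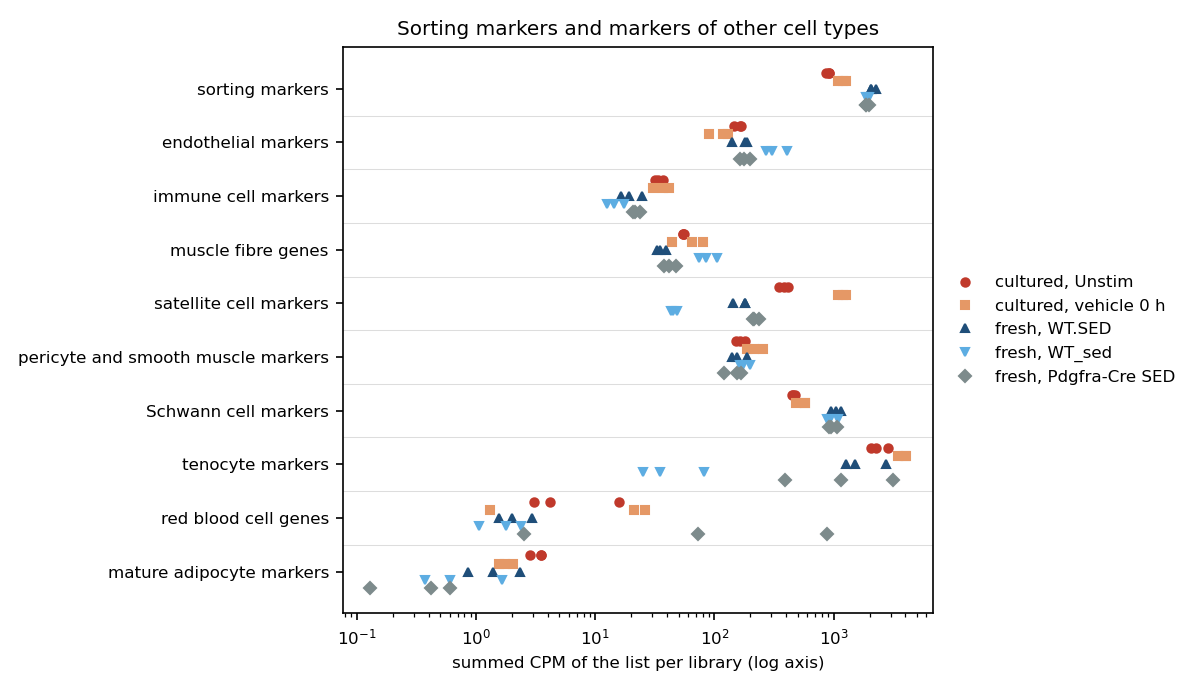
Summed level of the sorting markers and of marker lists for other cell types, in CPM on a log axis, 1 point per library and 1 colour per group. The WT_sed libraries lie at or below 82.5 CPM for tenocyte markers, and both cultured groups lie below all 9 fresh libraries for the sorting markers.

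Marker lists of other cell types also differed between Unstim and the fresh groups. The 16 immune markers summed to 31.6 to 36.9 CPM in Unstim, against 16.4 to 24.5 CPM in WT.SED and 12.5 to 17.5 CPM in WT_sed. Of the 4 that were abundant enough to test, 1 was called against both, Csf1r, the receptor for CSF1, at 18.3, 19.4 and 18.7 CPM in Unstim and 3.11, 7.60 and 8.61 CPM in WT.SED (log2 difference 1.54). The satellite cell list summed to 345 to 416 CPM in Unstim and 143 to 180 CPM in WT.SED, nearly all of it Vcam1, an adhesion molecule that is also on the list of stromal markers. Myod1, which defines myogenic cells, read 8.69, 2.00 and 1.93 CPM in Unstim, 0, 0.155 and 0 CPM in WT.SED and 0 in all 3 WT_sed libraries. Muscle fibre genes summed to 54.6 to 55.8 CPM in Unstim, 33.1 to 39.0 CPM in WT.SED and 74.9 to 104 CPM in WT_sed. The sums of 12 endothelial markers overlapped between Unstim (145 to 166 CPM) and WT.SED (141 to 186 CPM), and Tek made up most of each sum. Of the 9 endothelial markers tested, 2 were called higher against both references and none lower. Over all genes tested, 10.2% were called higher against both and 11.1% lower. Flt1, a VEGF receptor, read 17.5, 16.2 and 16.6 CPM in Unstim, 3.97, 4.66 and 1.16 CPM in WT.SED and at most 1.27 CPM in WT_sed (log2 difference 2.36 against WT.SED). Vwf, von Willebrand factor, read 5.43, 6.23 and 4.38 CPM in Unstim and 0, 1.71 and 0.662 CPM in WT.SED (log2 difference 2.71). The part of these markers in the results below was not tested.

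Of 14813 genes tested with edgeR's quasi-likelihood test, 5468 passed a Benjamini-Hochberg adjusted p of 0.05 between Unstim and WT.SED (36.9%), 2564 of them higher in culture (17.3%) and 2904 lower (19.6%). Against WT_sed 8008 genes passed (54.1%), 4160 higher (28.1%) and 3848 lower (26.0%), and between the 2 fresh groups themselves 7102 passed (47.9%). The fresh cohorts thus differed from each other in more genes than Unstim did from WT.SED. Called in the same direction against both references were 1505 genes that rose (10.2%) and 1642 that fell (11.1%). Counts of list members below are to be read beside these shares. A large change, defined as a log2 difference of at least 2 besides the adjusted p, was found against both references in 242 genes that rose (1.63%) and 81 that fell (0.547%). Of these, 146 (0.986%) and 46 (0.311%) were also large in the same direction against Pdgfra-Cre SED, a comparison taken from a separate fit of 15 libraries. The comparisons of Unstim with its 3 references share the Unstim libraries and are not independent of each other.

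The 12 largest rises and 11 of the 12 largest falls that held against both references are drawn by library in the plot of named genes. Every Unstim library lay beyond all 6 fresh libraries for each of these 23 genes, which the rule for naming them required. Before the 12 largest of each direction were taken, 1021 genes that rose and 1122 that fell met that rule. Such separation was thus common. These counts are out of 14813 genes tested and leave out genes below 20 CPM in the higher group. Statements below that libraries did not overlap are to be read beside them. Most list members given below were named for the size of their change.

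**Figure D2:**
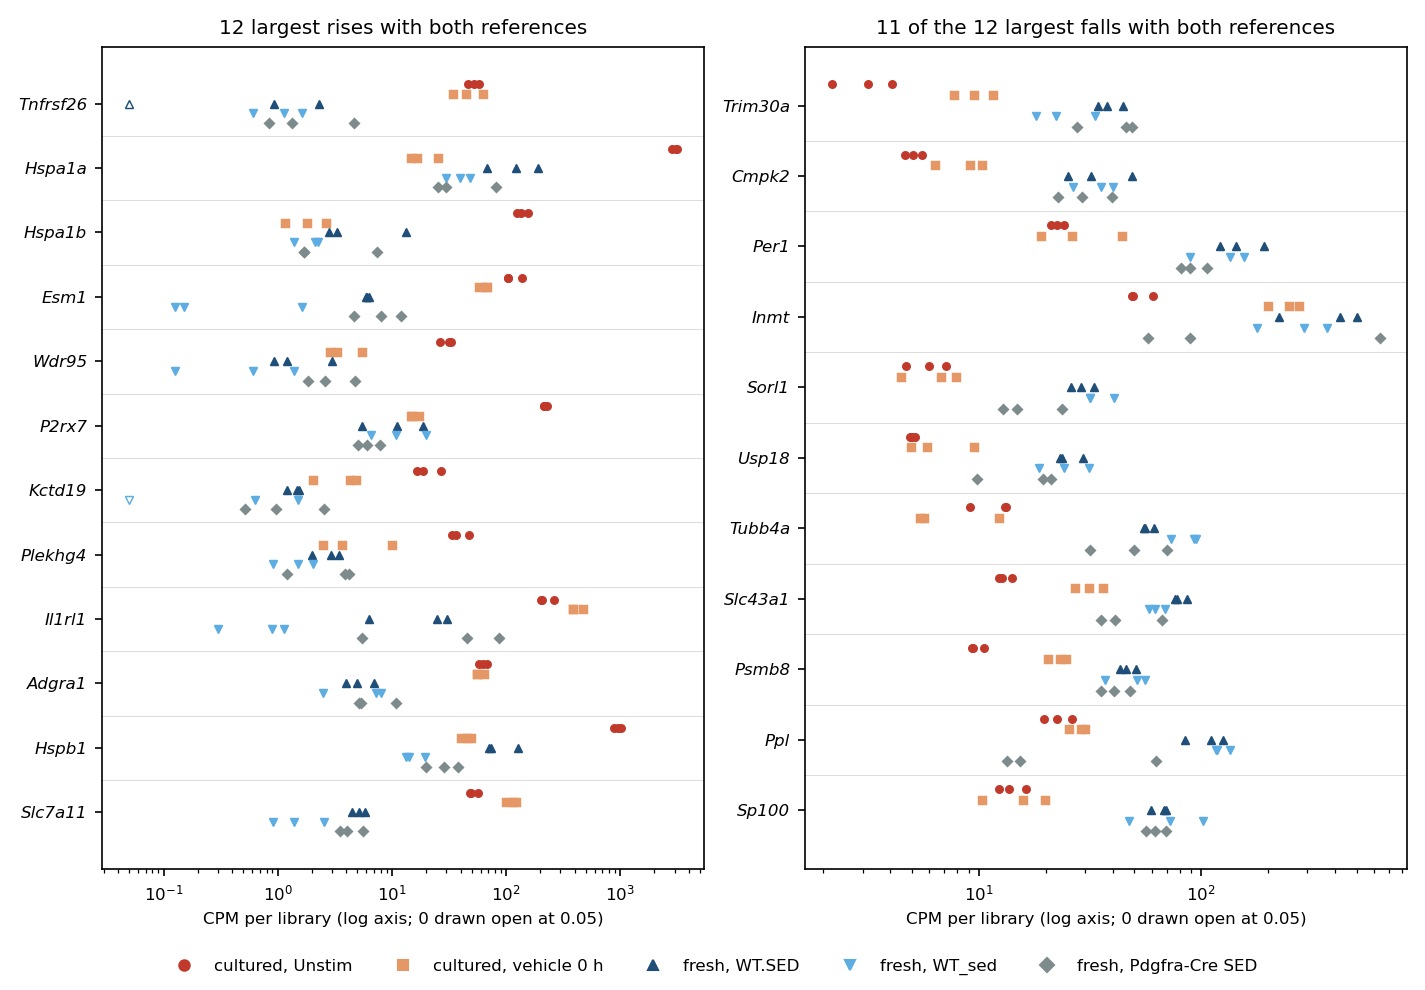
Level of 23 of the 24 genes with the largest changes against both references, in CPM on a log axis, 1 point per library and 1 colour per group. Hspa1a is at 2825 CPM or more in Unstim and at 192 CPM or less in every other library drawn, vehicle 0 h included, while Slc7a11 and Tnfrsf26 are high in both cultured groups.

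Heat shock chaperones reached the highest levels among these rises. Hspa1a, which encodes the inducible HSP70 chaperone (chromosome 17 from 34969190 to 34972156, mm10), read 3115, 2825 and 3128 CPM in Unstim, 192, 122 and 68.7 CPM in WT.SED and 48.3, 29.9 and 39.5 CPM in WT_sed. The Unstim libraries lay far above those of both fresh groups. The log2 difference was 4.57 ± 0.37 (SE) against WT.SED (adjusted p = 9.39e-06) and 6.28 ± 0.41 against WT_sed. Its near-identical neighbour Hspa1b read 155, 135 and 124 CPM in Unstim and at most 13.3 CPM in the 6 fresh libraries, and how the counting treated reads that match both copies was not given in the sources used here. Hspb1, the small chaperone HSP27, read 892, 962 and 1018 CPM against 127, 71.2 and 74.7 CPM in WT.SED (log2 3.40 ± 0.19, adjusted p = 6.11e-10).

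Of the 16 heat shock genes tested, 10 rose against both references and none fell against both. The median log2 difference of the list was 1.37 against WT.SED and 2.49 against WT_sed, where the medians of all genes were 0.02 and 0.03. Hspe1, the cochaperone of the mitochondrial chaperonin, read 339, 355 and 317 CPM in Unstim and 51.0, 39.7 and 37.9 CPM in WT.SED (log2 2.98 ± 0.12, adjusted p = 2.19e-13). Hsph1, a nucleotide exchange factor for HSP70, was at 2712 ± 28.3 CPM (SD, n = 3) against 418 ± 54.6 CPM, and Hsp90aa1, the inducible HSP90, at 773 ± 29.4 against 275 ± 33.8 CPM. The members did not move as one. Hspa8, the constitutive HSP70, fell against WT.SED (1234 ± 31.5 against 2314 ± 127 CPM, log2 -0.90) and rose against WT_sed (log2 1.17), and 4 of the 16 genes were called in opposite directions in this way. Hsph1, Hsp90aa1 and Hspa8 were picked after their values were seen.

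Hspe1 and Hspd1, which encode the 2 components of the mitochondrial chaperonin, lie head to head on chromosome 1 and rose together (Hspd1 log2 2.15 against WT.SED and 3.70 against WT_sed). Their shared promoter is shown because it holds a heat shock element, searched as GAA, TTC and GAA with any 2 bases between neighbouring units, on both strands of the RefSeq windows (GRCm38.p6, 250 bases before to 50 after each start). Capitals mark 2 overlapping matches, which begin 89 bases before the start of Hspe1 (chr1:55088036-55088095, plus strand).
Hspe1: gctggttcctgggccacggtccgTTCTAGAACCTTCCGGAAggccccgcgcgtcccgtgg
The motif was found for 3 of the 12 heat shock genes with a window (25%) and for 0.662% of the 27025 genes with one. Hspe1 and Hspd1 are 2 of these 3 and share 1 site, which is thus counted for both. Of the 7 members that rose against both references and had a window, only these 2 held the motif before the start. A match is a description of the sequence and not a measured binding site.

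NRF2 targets, which include the enzymes of glutathione synthesis and detoxification, rose against both references in 9 of 13 genes, and none fell against both. Slc7a11, the cystine importer that feeds glutathione synthesis (chromosome 3 from 49892526 to 50443614), read 49.8, 57.5 and 48.3 CPM in Unstim, 4.49, 5.12 and 5.80 CPM in WT.SED and 1.38, 2.53 and 0.908 CPM in WT_sed (log2 3.34 ± 0.20 and 4.98 ± 0.23). The quinone reductase Nqo1 read 16.3, 17.2 and 18.3 CPM against 2.76, 4.66 and 3.15 CPM in WT.SED (log2 2.29 ± 0.30, adjusted p = 4.53e-06). Unstim libraries were above all 6 fresh ones for both genes, which the naming rule required for Slc7a11. Hmox1, the haem-degrading enzyme, differed more between the fresh groups than between culture and WT.SED. It read 3200, 3248 and 3783 CPM in Unstim, 769, 791 and 1493 CPM in WT.SED, 26.3, 21.8 and 24.5 CPM in WT_sed and 2934, 2051 and 2114 CPM in Pdgfra-Cre SED. Its log2 difference was 1.75 against WT.SED, 7.15 against WT_sed and 0.53 against Pdgfra-Cre SED (adjusted p = 0.0445).

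Gclm, the regulatory subunit of the first enzyme of glutathione synthesis, read 32.7, 30.1 and 28.4 CPM in Unstim and 13.5, 9.47 and 10.8 CPM in WT.SED (log2 1.44 ± 0.18). Its promoter is shown as an example of the antioxidant response element, searched as TGACNNNGC on both strands, a motif added after the values were seen (chr3:122245398-122245457, plus strand, match in capitals beginning 134 bases before the start).
Gclm: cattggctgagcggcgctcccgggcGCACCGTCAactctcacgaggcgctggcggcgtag
This motif occurred for 6 of 10 list members with a window (60%) and for 14% of all genes with one, on either side of the start. Of the 9 members that rose against both references, 6 had a window and only 1, Gclm, held the motif before its start. In 1 of the called members, Me1, it overlapped an AP-1 match (TGANTCA).

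Of 23 genes of the ER stress and ATF4 list, 10 rose against both references and 1, Xbp1, fell against both. Chac1, which degrades glutathione and is a target of ATF4, read 15.8, 9.41 and 11.3 CPM in Unstim, 0, 2.17 and 0 CPM in WT.SED and at most 0.506 CPM in WT_sed. Psat1, an enzyme of serine synthesis, read 159, 158 and 166 CPM against 38.9, 40.4 and 44.5 CPM in WT.SED (log2 1.97 ± 0.12, adjusted p = 4.87e-11). Asns, asparagine synthetase, read 62.5, 63.3 and 63.9 CPM against 30.4, 32.0 and 30.8 CPM (log2 1.03 ± 0.15). Unstim libraries were above all 6 fresh ones for each of these genes.

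The other 8 of the 12 largest rises belonged to no list. Tnfrsf26, a TNF receptor family member (chromosome 7 from 143607659 to 143628722), read 58.3, 46.6 and 52.1 CPM in Unstim, 0, 0.931 and 2.32 CPM in WT.SED and 1.63, 1.14 and 0.605 CPM in WT_sed (log2 5.56 ± 0.43 and 5.49 ± 0.41). Esm1, a secreted proteoglycan (chromosome 13 from 113209659 to 113218098), read 104, 137 and 104 CPM against 6.05, 5.90 and 6.29 CPM in WT.SED (log2 4.24 ± 0.25, adjusted p = 8.31e-11). In both genes the highest fresh library given here lay far below the lowest Unstim library, where the naming rule required only that it lay below.

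P2rx7, an ion channel opened by extracellular ATP (chromosome 5 from 122643911 to 122691432), read 214, 216 and 230.1 CPM in Unstim, 18.7, 11.2 and 5.46 CPM in WT.SED and 20.1, 6.58 and 10.9 CPM in WT_sed (log2 4.23 ± 0.40 and 4.14 ± 0.39). Il1rl1, the receptor for interleukin 33, read 203, 263 and 206 CPM in Unstim and 30.2, 6.36 and 24.7 CPM in WT.SED (log2 3.47 ± 0.42), and in WT_sed it did not pass 1.13 CPM. Adgra1, an adhesion G protein-coupled receptor, read 63.4, 58.2 and 67.7 CPM against 3.97, 6.98 and 4.97 CPM in WT.SED (log2 3.56 ± 0.27). The Unstim libraries did not overlap the 6 fresh ones for any of these 3 genes, which the naming rule required. Wdr95, Kctd19 and Plekhg4 rose from at most 3.48 CPM in the 6 fresh libraries to between 16.6 and 47.8 CPM. Kctd19 and Plekhg4 overlap at their ends on chromosome 8, on opposite strands, and whether the counting used strand was not given in the sources used here.

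Matrix-degrading enzymes and matrix components changed in both directions. Of 22 matrix proteases and inhibitors, 6 rose and 4 fell against both references, where 10.2% of all genes rose and 11.1% fell. Mmp3, stromelysin, read 1810, 1796 and 1906 CPM in Unstim, 181, 208 and 199 CPM in WT.SED and 86.4, 40.1 and 15.4 CPM in WT_sed (log2 3.23 ± 0.48, adjusted p = 8.05e-04). The collagenase Mmp13 read 10.7, 20.3 and 9.28 CPM in Unstim and at most 0.518 CPM in the 6 fresh libraries. Neither gene overlapped between the Unstim and the 6 fresh libraries.

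Of 15 collagens 3 rose and none fell against both references, where 10.2% of all genes rose and 11.1% fell. Col12a1, a fibril-associated collagen, read 178, 179.8 and 199 CPM against 90.4, 109 and 87.1 CPM in WT.SED (log2 0.96 ± 0.13, adjusted p = 4.71e-06). Col1a1, the main fibrillar collagen chain, was called narrowly (log2 1.27, adjusted p = 0.0387), and the call was lost without any 1 of the 3 Unstim libraries (adjusted p = 0.0851, 0.0769 and 0.103) and without WT.SED replicate 2 (adjusted p = 0.122). Leaving out any 1 WT_sed or vehicle 0 h library, which sets the shared spread, also lost it (adjusted p = 0.0569 to 0.0599). Col4a1, a basement membrane collagen chain, was called at a log2 difference of 0.42 (adjusted p = 0.0283). That call was lost without any 1 Unstim library (adjusted p = 0.083, 0.0664 and 0.0688) and without WT.SED replicate 1 or 2 (adjusted p = 0.173 and 0.056). Of 24 matrix glycoproteins and proteoglycans 3 rose and 5 fell. Fbln2, a basement membrane fibulin, read 2186, 2149 and 2434 CPM against 4350, 4746 and 4478 CPM (log2 -0.998 ± 0.11). Tnxb, tenascin X, read 489, 538 and 519 CPM against 922, 1020 and 1084 CPM (log2 -0.96 ± 0.19), a fall that was not called against Pdgfra-Cre SED (log2 -0.50, adjusted p = 0.062).

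Genes of the YAP and SRF list, which respond to actin tension and cell spreading, rose in 8 and fell in 5 of 19. Ccn2, connective tissue growth factor, read 211, 205 and 209 CPM in Unstim, 34.4, 20.5 and 21.9 CPM in WT.SED and 7.29, 13.8 and 14.4 CPM in WT_sed (log2 3.03 ± 0.20 and 4.15 ± 0.22). Ccn1, a related matrix-associated protein, read 969.8, 902 and 979.7 CPM against 384, 305 and 317 CPM in WT.SED (log2 1.51 ± 0.11). The 5 that fell were Tagln2, Actb, Actg1, Flna and Zyx, which encode actins and actin-associated proteins and are named here after their values were seen.

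Among 27 growth factors and antagonists 6 rose and 2 fell, and among 12 cytokines 2 rose. Of all genes 10.2% rose and 11.1% fell against both references. Csf1, the growth factor of macrophages, read 885, 851 and 974 CPM in Unstim and 344, 390.2 and 489.7 CPM in WT.SED (log2 1.15 ± 0.12, adjusted p = 1.81e-07). Clcf1, a cytokine of the interleukin 6 family, read 60.2, 69.7 and 67.2 CPM against 17.3, 15.2 and 12.4 CPM (log2 2.14 ± 0.19). Hbegf, a ligand of the EGF receptor, read 112, 82.8 and 104 CPM against 30.1, 37.6 and 29.1 CPM (log2 1.63 ± 0.16). Every Unstim library was above every fresh one of both references for these 3 genes.

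Growth and damage genes are set here beside all genes, of which 10.2% rose and 11.1% fell against both references. Of 22 cell cycle genes 4 rose against both references and none fell, and these 4 (Rrm2, Mcm3, Mcm6 and Mcm7) are genes of DNA replication. Rrm2, a subunit of ribonucleotide reductase, read 31.1, 27.6 and 28.5 CPM against 5.87, 7.45 and 6.62 CPM in WT.SED (log2 2.13 ± 0.23), and Mcm3 and Mcm7, of the replicative helicase, had log2 differences of 1.39 and 1.57. Mcm6 was called with a log2 difference of 0.54 against WT.SED and was not called against Pdgfra-Cre SED (adjusted p = 0.0597). Its call against WT.SED was also lost without any 1 of the 3 Unstim libraries (adjusted p = 0.0789, 0.0713 and 0.0615) and without WT.SED replicate 1 or 3 (adjusted p = 0.0972 and 0.173). Against Pdgfra-Cre SED, where all 25 genes of the cell cycle list were tested, 3 were called higher and 2 lower in Unstim (median -1.03), and 3 higher and 8 lower in vehicle 0 h (median -0.95). Of all 15124 genes tested there, 2390 were called higher and 2820 lower in Unstim, and 2656 higher and 3061 lower in vehicle 0 h. The median of the cell cycle list thus had no direction that held across references. Of 14 p53 targets 5 rose, led by the kinase Plk2 at 363, 399 and 375 CPM against 75.3, 68.6 and 104 CPM (log2 2.20 ± 0.17). Of 18 ribosome biogenesis genes all rose against WT_sed, but 6 rose and 5 fell against WT.SED. Against Pdgfra-Cre SED 10 of the 18 rose and none fell (median 0.73).

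Among the falls, interferon-stimulated genes stood out by number. Of 27 tested, 24 fell against WT.SED, 18 fell against WT_sed and against both, and none rose against either. The median log2 difference was -2.51 and -1.28. Irf7, the transcription factor that amplifies interferon signalling, read 4.62, 5.53 and 9.02 CPM in Unstim, 85.9, 77.8 and 81.3 CPM in WT.SED and 37.6, 29.7 and 21.03 CPM in WT_sed (log2 -3.67 ± 0.28 and -2.20 ± 0.28). Isg15, a ubiquitin-like modifier, read 0.543, 1.41 and 1.68 CPM against 25.2, 12.3 and 14.9 CPM in WT.SED (log2 -3.81 ± 0.45, adjusted p = 1.03e-06).

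Trim30a, an interferon-induced TRIM protein (chromosome 7 from 104409025 to 104465193), read 4.07, 3.17 and 2.19 CPM in Unstim, 34.2, 37.9 and 44.7 CPM in WT.SED and 33.2, 22.1 and 18.2 CPM in WT_sed (log2 -3.62 ± 0.28 and -2.95 ± 0.28). Cmpk2, a mitochondrial nucleotide kinase, read 5.57, 5.06 and 4.64 CPM against 32.0, 25.3 and 48.8 CPM (log2 -2.79 ± 0.26). Usp18, which removes ISG15 from proteins and restrains the interferon receptor, read 4.89, 5.17 and 5.03 CPM against 23.7, 23.1 and 29.3 CPM (log2 -2.32 ± 0.26). Unstim libraries were below every fresh library of both references for all 3, which the naming rule required. Psmb8, an immunoproteasome subunit, and Sp100, a nuclear body protein, also fell (log2 -2.25 and -2.22). Of these 5 genes, which are among the 12 largest falls, Cmpk2 and Usp18 were on the interferon list.

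Promoter stretches of 4 interferon-stimulated genes that fell against both references are shown because they hold the interferon-stimulated response element, searched as GAAA, any 2 bases and GAAA on both strands, a motif added after the values were seen. Capitals mark the matches, some of which overlap one another. The stretches are chr4:156200862-156200921 (minus strand) for Isg15, chr5:120907526-120907585 (minus strand) for Oas1a, chr19:34583348-34583407 (plus strand) for Ifit3 and chr11:58199496-58199555 (plus strand) for Igtp.
Isg15: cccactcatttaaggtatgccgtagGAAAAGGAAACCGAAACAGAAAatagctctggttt
Oas1a: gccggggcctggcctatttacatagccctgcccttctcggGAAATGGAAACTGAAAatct
Ifit3: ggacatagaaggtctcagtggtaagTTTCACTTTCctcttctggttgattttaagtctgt
Igtp: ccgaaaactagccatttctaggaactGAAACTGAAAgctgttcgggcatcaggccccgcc
The motif was found for 15 of the 22 list members with a window (68.2%) and for 3.99% of all genes with one, on either side of the start. Of the 15 members that fell against both references and had a window, 7 held it before the start. It was found for 9 of the 46 large falls with a window (19.6%) and for 6 of the 153 large rises with one (3.92%).

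Cholesterol synthesis genes fell in 14 of 20 against both references and none rose against either, with medians of -1.20 and -1.83. Srebf2, the factor that drives this pathway, read 52.3, 58.4 and 62.3 CPM in Unstim against 207, 142 and 160.3 CPM in WT.SED (log2 -1.55 ± 0.16, adjusted p = 1.33e-07). Idi1, an enzyme of the pathway, read 1.36, 1.18 and 1.03 CPM in Unstim and 9.33, 4.35 and 4.14 CPM in WT.SED (log2 -2.30 ± 0.50, adjusted p = 0.00105). The groups did not overlap for either gene.

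Markers of resting stromal cells fell in 15 of 18 genes against both references, and 2 rose (Pdgfrb and Vcam1). The medians were -1.24 and -1.39. Among them were the genes of both proteins used for positive selection in the sort. Pdgfra read 404, 450.1 and 435 CPM in Unstim, 932, 949.6 and 879 CPM in WT.SED and 674, 629.7 and 701 CPM in WT_sed (log2 -1.09 ± 0.09 and -0.63 ± 0.09). Ly6a read 446, 449 and 479 CPM against 1126, 1082 and 1375 CPM in WT.SED (log2 -1.38 ± 0.11). For both genes the highest Unstim library was below the lowest of the 6 fresh ones.

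Cd248, endosialin, read 149, 143 and 208 CPM in Unstim, 453, 636 and 721 CPM in WT.SED and 1398, 1499 and 1561 CPM in WT_sed (log2 -1.85 ± 0.16 and -3.15 ± 0.17). Dpp4, a cell surface peptidase, read 78.6, 82.0 and 80.8 CPM against 213, 249 and 302 CPM in WT.SED (log2 -1.66 ± 0.14). Cd55, which protects cells from complement, read 94.5, 87.9 and 72.6 CPM against 246, 266 and 213 CPM (log2 -1.50 ± 0.12). All 3 were lower in every Unstim library than in any of the 6 fresh ones. Of 11 complement genes 6 fell and none rose against both references. C3, the central component, read 796, 728 and 962 CPM in Unstim, 2351, 3394 and 3681 CPM in WT.SED and 1802, 1542 and 2119 CPM in WT_sed, but 1464, 428 and 730.4 CPM in Pdgfra-Cre SED, where it was not called (log2 -0.08, adjusted p = 0.895).

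Per1, a repressor of the circadian clock (chromosome 11 from 69095217 to 69109960), read 21.1, 22.6 and 24.2 CPM in Unstim, 191, 121 and 144 CPM in WT.SED and 155, 134 and 88.8 CPM in WT_sed (log2 -2.74 ± 0.28 and -2.47 ± 0.28). Of 16 clock genes 2 rose (Bhlhe41 and Arntl) and 2 fell (Per1 and Cry2) against both references, a share near that of all genes. Of 11 glucocorticoid-induced genes 4 fell and 1 rose. Fkbp5, a cochaperone of the glucocorticoid receptor, read 11.95, 10.6 and 12.2 CPM against 28.3, 57.3 and 35.1 CPM in WT.SED (log2 -1.79 ± 0.25). The eosinophil chemoattractant Ccl11 read 239, 191 and 218 CPM against 764, 842 and 709.9 CPM in WT.SED (log2 -1.83 ± 0.11). Neither gene overlapped between the Unstim and the 6 fresh libraries. Of 25 glycolysis and hypoxia genes 3 fell (Pfkp, Aldoa and Pfkfb4) and none rose against both, where 11.1% of all genes fell and 10.2% rose.

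The 12 largest falls also held Inmt, a methyltransferase (log2 -2.85 against WT.SED and -2.39 against WT_sed), Sorl1, a sorting receptor (-2.30 and -2.54), Tubb4a, a tubulin (-2.27 and -2.87), and Slc43a1, an amino acid transporter (-2.61 and -2.26). Inmt read 634, 88.9 and 57.8 CPM in Pdgfra-Cre SED, which overlapped Unstim at 60.8, 49.3 and 48.6 CPM. It was not called in vehicle 0 h against Pdgfra-Cre SED (log2 -0.11, adjusted p = 0.923). Ppl, the cytoskeletal linker periplakin and another of the 12, had log2 differences of -2.22 and -2.42 but was not called against Pdgfra-Cre SED (log2 -0.40, adjusted p = 0.552).

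**Figure D3:**
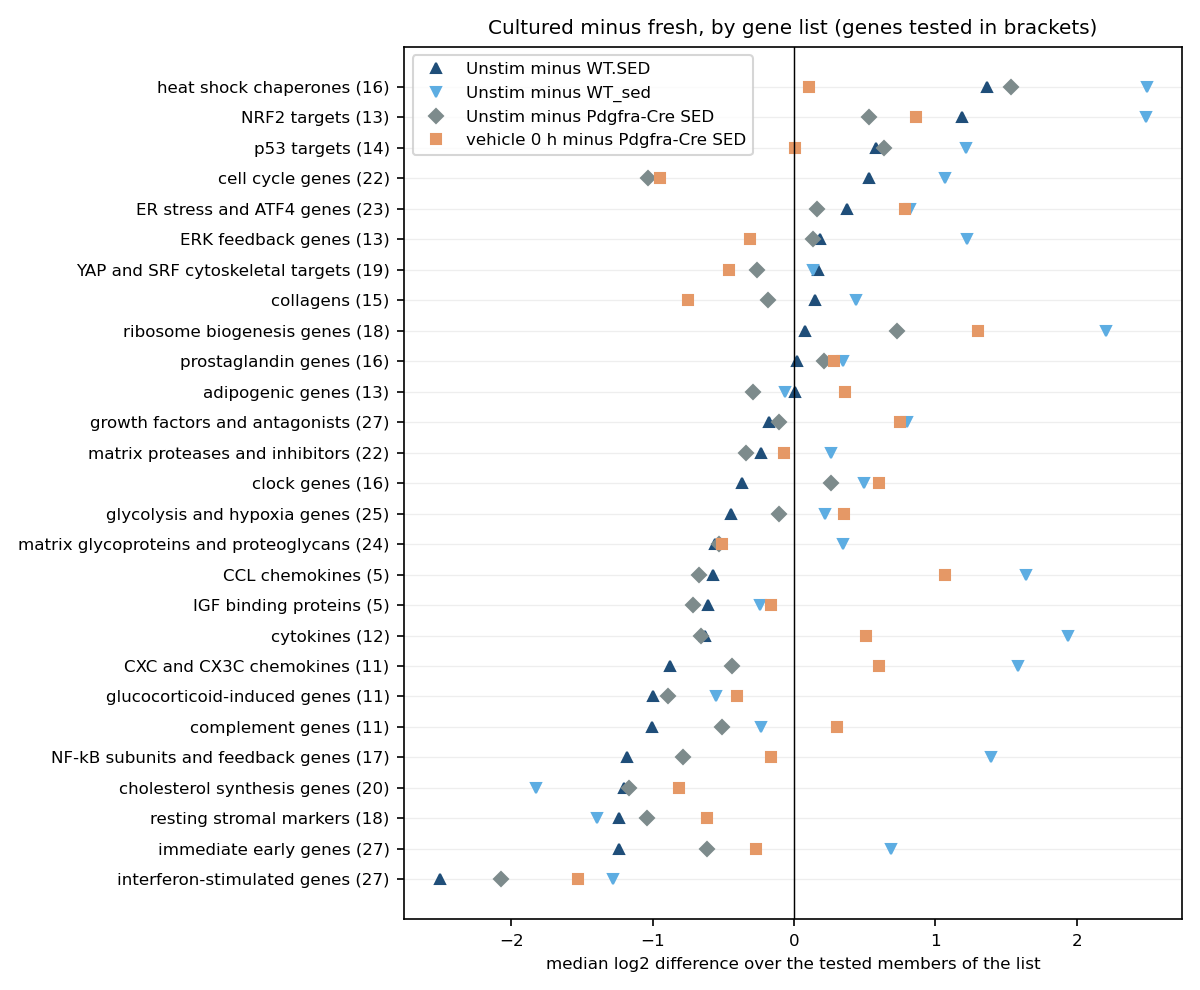
Median log2 difference of each gene list for Unstim against 3 fresh references and for vehicle 0 h against Pdgfra-Cre SED, 1 symbol per comparison. Interferon-stimulated, cholesterol, resting stromal, glucocorticoid-induced and IGF binding protein lists are below 0 in all 4 comparisons. NRF2, heat shock, ER stress and ATF4, ribosome biogenesis, p53 and prostaglandin lists are above 0 in all 4, some of them narrowly. The NF-kB, chemokine and immediate early lists lie above 0 for Unstim against WT_sed and below 0 for Unstim against the other 2 references.

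Early response and inflammatory genes had no direction that held across references. Of 27 immediate early genes 20 fell and 2 rose against WT.SED (median -1.24), whereas 15 rose and 8 fell against WT_sed (median 0.68), and 9 were called in opposite directions. Of 17 NF-kB subunits and feedback genes 13 fell and 1 rose against WT.SED (median -1.18), whereas 12 rose and 2 fell against WT_sed (median 1.40). Nfkbia, the inhibitor that NF-kB induces, was at 237 ± 9.41 CPM in Unstim, 772 ± 95.1 CPM in WT.SED, 82.5 ± 9.42 CPM in WT_sed and 686 ± 53.7 CPM in Pdgfra-Cre SED (SD, n = 3 each). The neutrophil chemokine Cxcl1 was at 699 ± 77.4, 3041 ± 553, 63.0 ± 13.9 and 1613 ± 213 CPM in the same order. Unstim lay between WT_sed and the other 2 fresh groups for both genes, which were picked after their values were seen. Against Pdgfra-Cre SED, where 34.4% of all genes were called, 12 NF-kB genes fell and 2 rose.

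Early response genes that changed the same way against both references were mostly lower in culture, 8 against 2. Fos, a subunit of AP-1, read 212, 197 and 220.3 CPM in Unstim, 1064, 673 and 799 CPM in WT.SED and 679.6, 385 and 456 CPM in WT_sed (log2 -2.01 ± 0.18 and -1.27 ± 0.18). Klf4, a zinc finger factor, read 46.2, 52.8 and 51.0 CPM against 157, 119 and 133 CPM in WT.SED (log2 -1.44 ± 0.15). Unstim libraries were below all 6 fresh ones for both.

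Vehicle 0 h gave a second cultured group, and its difference from Pdgfra-Cre SED shares no library with the difference between Unstim and WT.SED. Of 15124 genes tested in the fit of all 15 libraries, 5717 were called between vehicle 0 h and Pdgfra-Cre SED (37.8%), 2656 higher in culture (17.6%) and 3061 lower (20.2%). Large rises numbered 317 for Unstim against WT.SED in that fit (2.10%) and 493 for vehicle 0 h against Pdgfra-Cre SED (3.26%), and 95 genes were in both, 30.0% of the first and 19.3% of the second. Large falls numbered 286 (1.89%) and 320 (2.12%), with 63 in both, 22.0% and 19.7%. Large changes in opposite directions were found for 2 of the rises and 1 of the falls. With WT_sed as the fresh reference of vehicle 0 h, where 59.4% of genes were called, 219 large changes were in both pairs (1.48%), 178 rises and 41 falls. Of the large changes between Unstim and WT.SED, 6 of 354 rises and 50 of 288 falls were large in the opposite direction in that pair, more falls than it shared.

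The gene groups differed in how they stood in this second pair. Of 27 interferon-stimulated genes 23 fell in vehicle 0 h against Pdgfra-Cre SED (median -1.53), as did 11 of 20 cholesterol genes (median -0.82) and 12 of 18 resting stromal markers (median -0.61). Called higher there were 17 of 18 ribosome biogenesis genes (median 1.30) and 8 of 13 NRF2 targets (median 0.87), and none of either list was called lower. Of 23 ER stress and ATF4 genes 13 rose and 3 fell (median 0.78). Slc7a11 read 100.3, 122 and 114 CPM in vehicle 0 h against 4.08, 3.52 and 5.58 CPM in Pdgfra-Cre SED (log2 4.67 ± 0.23). Tnfrsf26 read 45.0, 62.7 and 34.4 CPM against 0.844, 1.33 and 4.67 CPM (log2 4.36 ± 0.52). Both genes were thus high in each cultured group and low in each fresh one.

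A test of the difference between the 2 pairs, added after the data were seen, called 2911 genes (19.2%), of which 548 differed by a log2 of 2 or more (3.62%).

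Heat shock genes were mixed in the second pair: 6 rose and 4 fell in vehicle 0 h against Pdgfra-Cre SED (median 0.10). Against WT_sed, 12 rose in vehicle 0 h and 1 fell (median 1.075). Hspa1a read 16.5, 14.7 and 25.6 CPM in vehicle 0 h and 82.4, 25.2 and 29.7 CPM in Pdgfra-Cre SED, with overlap (log2 -1.27, adjusted p = 0.0729). P2rx7 read 17.2, 15.1 and 14.8 CPM in vehicle 0 h, against 214 to 230.1 CPM in Unstim. Between the cultured groups directly 3220 genes were called (21.7%), 1413 of them higher in Unstim (9.54%), and 13 of 16 heat shock genes were higher there. The log2 difference of Unstim from vehicle 0 h was 7.32 ± 0.44 for Hspa1a, 4.40 ± 0.20 for Hspb1 and 2.23 ± 0.12 for Hspe1. These groups differ in genotype label and cohort, which cannot be told apart from any difference in culture.

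**Figure D4:**
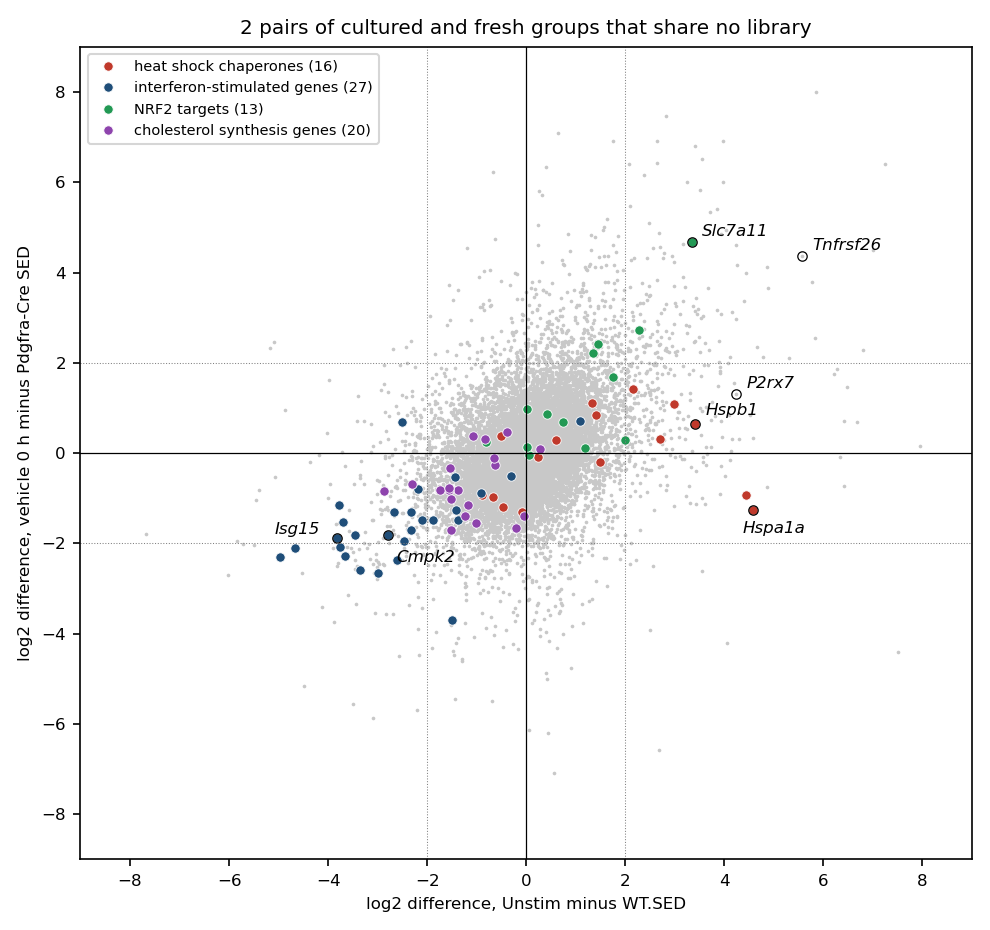
Log2 difference of each gene for Unstim minus WT.SED (x) and for vehicle 0 h minus Pdgfra-Cre SED (y), pairs that share no library, with gene lists in colour. Interferon-stimulated genes lie mostly at lower left, Slc7a11 (3.34 and 4.67) and Tnfrsf26 (5.56 and 4.36) at upper right, and Hspa1a (4.57 and -1.27) at right below 0.

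Piezo1 itself (chromosome 8 from 122481698 to 122551329) depended on the reference. It read 86.1, 98.6 and 88.3 CPM in Unstim and 98.1, 89.2 and 95.0 CPM in WT.SED, where the groups overlapped (log2 -0.04 ± 0.13, adjusted p = 0.83). WT_sed read 17.9, 17.7 and 13.3 CPM (log2 2.48 ± 0.14), and Pdgfra-Cre SED 41.3, 45.0 and 50.4 CPM (log2 1.00 ± 0.14, adjusted p = 1.09e-05). Piezo1 was called higher in Unstim against 2 of the 3 fresh groups and was not called against WT.SED.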

How the data were processed

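Alignment used STAR 2.7.3a with the mouse build mm10 and counting used featureCounts (no version named), per the submitters' processing notes. Strandedness and gene annotation were not given in the sources used here. Whole-number counts for 55011 gene symbols, as the authors deposited them, entered the analysis unchanged. Positions were taken from GENCODE M21, which held 52936 of the symbols.

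Unstim, WT.SED, WT_sed and vehicle 0 h (12 libraries) shared 1 fit in R 4.3.3 with edgeR 4.0.16 (filterByExpr at a minimum count of 10, TMM, robust quasi-likelihood test, Benjamini-Hochberg adjustment over all genes, called at 0.05). Differences from Pdgfra-Cre SED came from a fit of 15 libraries. CPM levels used TMM factors over the 15. In the Pdgfra-Cre SED cohort, sample titles disagreed with library names, so columns were tied to a group and its replicates have no numbers. Replicates of a group differed by a chi-square of at least 4.09 per gene, so no pair agreed within counting noise. Whether replicates share cells or a culture was not tested. The Pdgfra-Cre SED replicates differed by 45.63, 86.65 and 30.36 per gene, where the smallest value between libraries of different groups was 32.03. Comparisons with that group rest on libraries that differed this much among themselves. On simulated counts for Unstim and WT.SED (14069 genes), 55.1% of genes changed by a log2 of 1 and 78.4% of those changed by 2 were recovered. The simulation changed 98 genes by 1 and 102 by 2, far fewer than were called in the data, so its recovery need not hold for these comparisons.

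The groups, gene lists and rules were chosen with earlier results of these data known. Genes were named if called the same way against both references, with a mean of 20 CPM or more in the higher group and every Unstim library beyond all 6 fresh ones, the 12 per direction with the largest smaller log2 difference, predicted genes and clones left out. A few genes that met these rules are not reported here; list counts and medians include them. Up to 4 members per gene list called against both (or, where none was, 2 with the smallest p), markers of other cell types at 5 CPM or more, the sorting markers and Piezo1 were added. The alternatives tried were DESeq2 1.42.0, RLE scaling, dropping the count filter, fewer groups in the fit, thinned counts, a replicate block, other fold limits, another reference and leaving out each library. Promoter windows are from RefSeq (GRCm38.p6).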

Additional observations from a re-analysis of the deposited data

Results flagged for a closer look

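The difference between Unstim and WT.SED was set against that between vehicle 0 h and Pdgfra-Cre SED, 2 cultured and fresh pairs that share no library, by testing the difference of the 2 log2 differences in 1 edgeR fit of 15 libraries. This test was chosen after the data were seen. Of 15124 genes 2911 passed an adjusted p of 0.05 (19.2%), and 548 of them differed by a log2 of 2 or more (3.62%). Of 105 named genes tested, 14 did so.

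In 7 of them the difference was more positive for Unstim. It was 5.84 for Hspa1a and 5.36 for its copy Hspa1b, and 2.75 for Hspb1, all heat shock chaperones. It was 3.83 for Wdr95, 2.99 for Plekhg4, 2.37 for the overlapping Kctd19 and 2.92 for the ATP-gated channel P2rx7.

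In the other 7 it was more negative for Unstim. The values were -2.02 for the amino acid transporter Slc43a1, -2.13 for Ppl and -2.19 for the clock gene Cry2. They were -2.26 for Asns, which rose in both pairs and more in vehicle 0 h, -2.38 for the transcription factor Cebpd, -2.44 for the secreted peroxidase Gpx3 and -2.89 for complement C3. Genotype label, cohort and culture differ together between the pairs and cannot be told apart.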

How the results depend on the processing

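Of 134 alternatives for the counts of called or large genes, 128 stayed within 1.5 times the reported count. These counts add rises and falls, and the directions shifted more with the reference. With Pdgfra-Cre SED in place of WT_sed, the 242 large rises and 81 large falls became 162 and 127. With vehicle 0 h set against Pdgfra-Cre SED, the 178 shared rises and 41 shared falls became 95 and 63. The 323 large changes against both references became 1198 at a log2 limit of 1, 96 at a limit of 3 and 185 when Pdgfra-Cre SED was required as well and all 3 comparisons came from the fit of 15 libraries, an alternative added after the data were seen. With both first comparisons from the fit of 12 libraries, as in the report, that count is 192. The 219 large changes shared with vehicle 0 h against WT_sed became 868 and 70 at the same limits, and 115 when each comparison was fitted with its own groups only. Leaving out 1 library at a time gave 4339 to 5758 calls against WT.SED, 7022 to 8426 against WT_sed, 6165 to 7469 between these fresh groups, 8209 to 9117 for vehicle 0 h against WT_sed, 2162 to 3320 between the cultured groups, 292 to 359 large changes against both references and 198 to 241 shared ones.

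Libraries with the same replicate number did not deviate together (correlations of -0.04 to 0.03), so the numbers were not taken as a pairing. With the replicate number as a block 5293 genes were called against WT.SED, 7817 against WT_sed and 318 were large against both.

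Named genes reversed direction as follows, and the cause was not tested. The log2 difference of Piezo1 was 0.0026 without a filter on low counts and 1.00 against Pdgfra-Cre SED. That of Pecam1, not called against WT.SED, was -0.06 without Unstim replicate 2 and -0.16 without WT.SED replicate 1, within a range of -0.16 to 0.43 over the libraries left out. Against Pdgfra-Cre SED that of Postn was -0.62 and that of Hba-a1 -5.65. Calls against WT.SED that were not made against Pdgfra-Cre SED were those of Acta2, C3, Col1a1, Cxcl14, Gdf15, Igfbp4, Klf15, Mcm6, Mme, Notch3, Postn, Ppl, Ptges, Rgs5 and Tnxb. With 3 libraries a group, changes near a log2 of 1 were missed more often than larger ones in simulated counts, which held far fewer changed genes than the data.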
